A study of Homo sapiens with 8 samples.

Results

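HGC27 is an established human gastric cancer cell line, grown out of a lymph node metastasis of an undifferentiated carcinoma, and the labels describe it as a line without p53. The transcriptome described here is that of the GFP control cells of a p53 study, 2 of its 8 samples. The other samples are HGC27 cells that overexpress the p53 mutant R175H, R248Q or R273H, with 2 samples of each mutant. The control samples carry GFP, a fluorescent protein, and their label for mutant overexpression is null. The labels give neither the vector, the promoter, nor whether the cells are one clone, and the series title speaks of knockout and knockdown where the design text speaks of overexpression. All cells were grown in alpha-MEM medium, and mRNA libraries were made from total RNA. The labels number the 2 control samples but do not say that they came from separate cultures, so the difference between them may be technical. Levels in the mutant cells are not compared with the control here.

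The lining of the stomach is an epithelium held together by E-cadherin, claudins, desmosomes and keratin filaments. Its surface cells secrete mucins, trefoil factors and gastrokines, and its glands secrete pepsinogens and acid. Mesenchymal cells such as fibroblasts instead use vimentin filaments and secrete fibrillar collagens and proteoglycans, and transcription factors of the TWIST, ZEB and SNAI families switch epithelial cells toward that state. Undifferentiated gastric carcinomas are known for the loss of glandular structure and of cell-to-cell adhesion.

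The table held 25343 genes, and the total was 9769342 counts in GFP replicate 1 and 8928928 counts in GFP replicate 2. With n = 2, both values are printed in place of a mean and SD. Levels are given for replicate 1 and then replicate 2, as CPM, the count scaled to a library total of 1000000,, or as CPM per kilobase of the longest annotated transcript (CPM per kb) where different genes are set side by side. A gene was called expressed at a CPM of at least 1 in both libraries, and at the floor with at most 3 counts in each, which is 0.307 and 0.336 CPM. A gene without a count can lie anywhere below that level, so the floor is a limit of detection and not a proof of absence. By these rules 12642 genes, or 49.9%, were expressed and 11066 genes, or 43.7%, were at the floor, among them 8534 with no count in either library. Of the 18985 protein-coding genes, 61.9% were expressed and 32.4% were at the floor. Across genes the 2 libraries had a Pearson correlation of 0.997 on log2(CPM + 1), and genes are not independent replicates. Only 78 expressed genes, or 0.617%, were over 2-fold apart. The libraries still differed by more than counting error, with a chi-square of 5.72 per degree of freedom over 12777 genes, and in a way that followed transcript length. The median log2 ratio of replicate 2 over replicate 1 was -0.20 for transcripts under 1000 nt and 0.28 for those of 8000 nt or more. The labels do not name the read counting step or its strand setting, so reads of overlapping or antisense genes cannot be told apart, and near-identical gene copies are uncertain.

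The genes described below come from 63 lists in 5 themes: lineage, matrix, metabolism, receptors and regulators. Of the 1763 listed genes in the table, 1086, or 61.6%, were expressed, near the 61.9% of all protein-coding genes. The share differed between themes: 36.7% of 390 lineage genes, 58.7% of 242 matrix genes, 76.5% of 319 metabolic genes, 55.6% of 430 receptor and ligand genes and 81.5% of 411 regulators. The lists hold different kinds of genes by construction, so these shares describe the lists and were not tested.

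**Figure D1:**
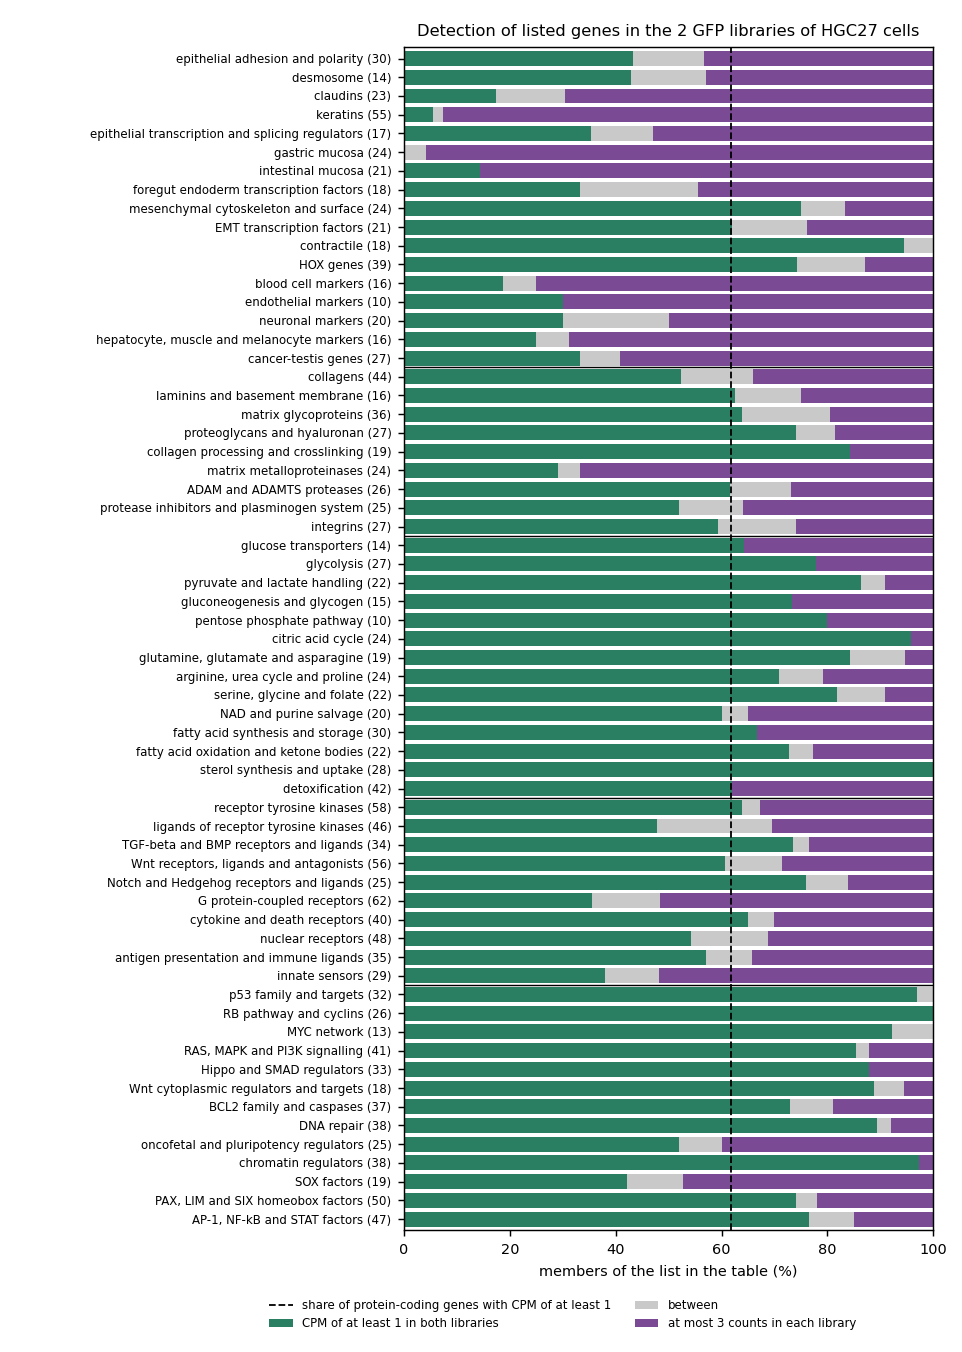
Share of the members of each of the 63 lists (number in the table in brackets) that were expressed, in between, or at the floor in the 2 GFP libraries, with lines between the 5 themes. The dashed line is the 61.9% of protein-coding genes that were expressed: gastric mucosa has no expressed member of 24 and keratins have 3 of 55, while sterol synthesis has 28 of 28 and the RB pathway 26 of 26.

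EEF2, the elongation factor that moves the ribosome along mRNA, had the highest count, 9212 and 9812 CPM, which is 0.921% and 0.981% of each library. GAPDH, a glycolytic enzyme, was highest per length at 4275 and 4094 CPM per kb. VIM, which encodes the intermediate filament vimentin, was seventh per length in the whole table, and ENO1, the glycolytic enolase, stood just above it at 2227 and 2069 CPM per kb. The 15 genes with the highest CPM also held COL3A1, a fibrillar collagen chain of connective tissue, at 2463 and 2788 CPM, and SCD, the enzyme that makes monounsaturated fatty acids, at 2529 and 2862 CPM. MIR1282, a microRNA gene, also reached the 15 highest per length, but its annotated transcript is only 101 nt long.

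No gene of the gastric mucosa list was expressed. Of its 24 genes in the table, 23 were at the floor, against 32.4% of protein-coding genes. GKN1, the gastrokine of surface mucous cells, PGC, a pepsinogen, and the trefoil factors TFF1 and TFF2 had no count in either library. MUC6, the gland mucin, and CLDN18, the claudin of gastric tight junctions, each had 2 and 0 counts, and ATP4A, the catalytic subunit of the gastric proton pump, had 1 count in each library. PSCA, a surface antigen of gastric epithelium, was the only list member above the floor, at 1.02 and 0.896 CPM, with replicate 2 just under the threshold. The pepsinogen genes PGA3, PGA4 and PGA5 are near-identical copies, so their values of at most 1 count are uncertain. MUC5AC was not analysed here. None of the 6 defining gastric markers in the table was expressed, so these counts do not show the gastric origin that the labels give.

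Intestinal genes were mostly at the floor too, 18 of 21, yet the regulator CDX2 was expressed. CDX2, the homeobox factor of intestinal identity, was at 6.04 and 7.50 CPM. MUC2, VIL1 and KRT20, products of differentiated intestinal cells, had no count in either library, as had the stem cell receptor gene LGR5 and HNF4A, a master regulator of gut epithelium. Among transcription factors of foregut endoderm, 6 of 18 were expressed. GATA4 was at 7.41 and 8.59 CPM per kb and GATA6 at 6.08 and 7.25 CPM per kb, both zinc finger factors of stomach and heart, and HHEX, a homeobox factor, at 6.52 and 6.94 CPM per kb lay between them. The ranges of HHEX and GATA6 overlapped, so their order is not resolved. SOX2 and BARX1, factors of stomach patterning, had no count in either library.

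Of 30 genes of epithelial adhesion and polarity, 13 were expressed and 13 were at the floor, among them the defining surface proteins. CDH1, which encodes E-cadherin, and EPCAM, a surface marker of epithelia, had 1 count in each library. The catenin CTNNA1, which links any classical cadherin to actin, was the highest of the adhesion list at 87.7 and 92.1 CPM per kb, and CTNNB1 followed at 37.2 and 42.2 CPM per kb. CDH2, which encodes N-cadherin, and CDH4 each had 2 counts in each library, and CDH3, which encodes P-cadherin, was above the floor but not expressed in both libraries, at 0.921 and 1.12 CPM. CDH6, a cadherin of the embryonic kidney, was instead at 167 and 182 CPM. OCLN, a tight junction protein, was at 1.13 and 2.35 CPM, and CXADR, a junction protein that also binds viruses, at 70.2 and 77.6 CPM.

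Desmosomal genes were split, with 6 of 14 expressed. DSG2, the desmosomal cadherin of simple epithelia and heart, was the highest at 18.3 and 25.4 CPM per kb, with replicate 2 the higher. DSP, which encodes the desmosomal plaque protein desmoplakin, was at 3.89 and 8.62 CPM, and its plaque partner PKP3 had 0 and 2 counts. The claudins, which seal tight junctions, had 4 of 23 expressed members. CLDN15 was at 17.8 and 20.2 CPM, CLDN12 at 22.6 and 21.95 CPM and CLDN7 at 8.60 and 8.29 CPM, while CLDN3 had 1 and 0 counts.

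Keratins were at the floor in 51 of 55 genes. KRT10, a keratin best known from suprabasal skin, was the exception at 78.2 and 73.2 CPM. KRT8, a keratin of simple epithelia, was at 1.33 and 1.12 CPM, and its filament partners KRT18 and KRT19 had no count in either library. KRT4, a keratin of stratified linings, was at 1.43 and 2.69 CPM. With KRT10 set aside, no keratin reached 3 CPM in either library.

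Of the regulators of epithelial state, 6 of 17 were expressed. TFAP2A, an AP-2 factor, was at 56.2 and 61.9 CPM, KLF5 at 29.1 and 35.3 CPM and KLF4 at 9.93 and 11.1 CPM, the last 2 being zinc finger factors of gut epithelium. ESRP1, the splicing factor that sets epithelial exon choice, had 1 and 4 counts, and its paralogue ESRP2 was at 5.32 and 4.03 CPM. GRHL2, OVOL2, EHF and ELF5, each a transcription factor of epithelial differentiation, had no count in either library.

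**Figure D2:**
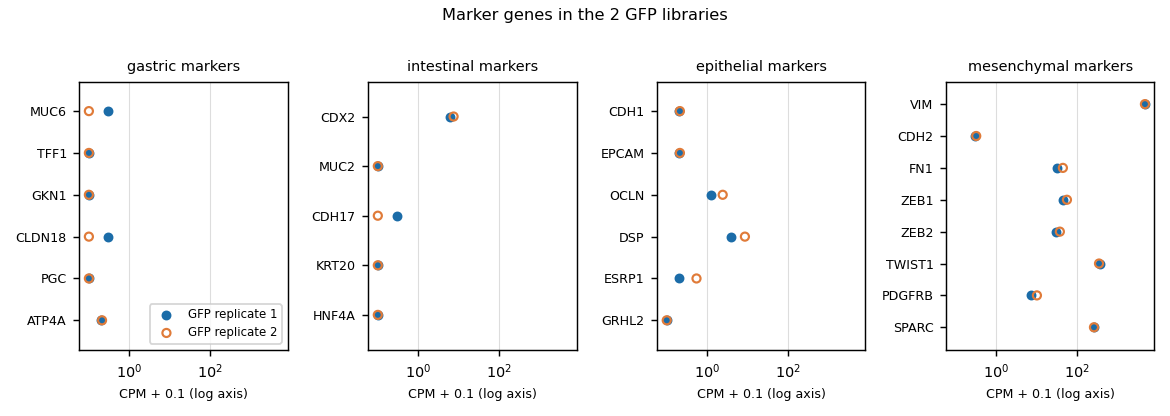
Levels of marker genes of gastric, intestinal, epithelial and mesenchymal cells in GFP replicate 1 (filled) and GFP replicate 2 (open), as CPM + 0.1 on a log axis. The gastric markers sum to 0.512 and 0.112 CPM, and the mesenchymal markers to 5687 and 5787 CPM, most of it VIM; CDH2 is the mesenchymal marker at the floor.

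Mesenchymal structural genes stood at the other end, with 18 of 24 expressed. VIM was at 4912 and 5001 CPM and LGALS1, a galectin of mesenchymal cells, at 1052 and 937 CPM. NES, the filament protein nestin, was at 146 and 154 CPM, ENG, a TGF-beta co-receptor, at 112 and 117 CPM, and ALCAM, a cell adhesion molecule, at 177 and 209 CPM. S100A4, a calcium-binding protein linked to motility, was at 122 and 92.6 CPM, whereas S100A6, its close relative, had 0 and 2 counts. FN1, which encodes fibronectin, was at 32.96 and 45.8 CPM. Contractile genes were expressed in 17 of 18 cases, against 61.9% of protein-coding genes. The highest per length were TAGLN2, an actin-bundling protein, at 247 and 224 CPM per kb and the tropomyosin TPM4 at 218 and 213 CPM per kb. The means of CNN1, ACTG2 and MYH11 lay under 1 CPM per kb, while those of ACTA2, TAGLN and MYL9 lay above it.

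Transcription factors that drive the mesenchymal state were expressed in 13 of 21 cases, the same share as the 61.9% of protein-coding genes. TWIST1 was the highest at 232 and 217 CPM per kb, and TCF3, the E protein with which TWIST factors pair, was at 178 and 195 CPM per kb. The ranges of both genes did not overlap. With the median annotated transcript as length in place of the longest, TCF3 led the list. PRRX2 was at 111 and 111 CPM per kb and PRRX1 at 44.7 and 48.8 CPM per kb, both homeobox factors of limb and face mesenchyme. ZEB1 and ZEB2, repressors of CDH1, were at 46.1 and 57.8 CPM and 30.4 and 38.5 CPM, and SNAI1 at 19.04 and 19.5 CPM. TWIST2 had 1 and 0 counts and TCF21, a factor of visceral mesenchyme, had no count in either library.

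VIM and GKN1 are examples of an abundant gene and of a gene without counts, and the 250 bases before each start are shown, since promoters rich in CG dinucleotides and promoters poor in them differed in how often their gene was expressed. The VIM stretch is chr10:17227991-17228240 on the plus strand and the GKN1 stretch is chr2:68974386-68974635 on the plus strand. Both are RefSeq sequences of GRCh38.p14, upstream of the first exon, read 5′ to 3′ with each CG in capitals.
VIM: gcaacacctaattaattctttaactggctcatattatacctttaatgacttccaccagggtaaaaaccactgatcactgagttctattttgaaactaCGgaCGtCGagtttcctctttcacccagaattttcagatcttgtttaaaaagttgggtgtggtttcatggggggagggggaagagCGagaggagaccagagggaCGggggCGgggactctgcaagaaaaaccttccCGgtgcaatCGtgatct
GKN1: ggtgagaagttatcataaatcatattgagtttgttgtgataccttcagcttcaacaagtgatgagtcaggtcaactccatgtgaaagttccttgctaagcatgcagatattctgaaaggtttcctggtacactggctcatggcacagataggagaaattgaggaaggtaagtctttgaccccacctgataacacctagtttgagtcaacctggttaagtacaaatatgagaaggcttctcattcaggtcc
The VIM stretch holds 8 CG dinucleotides and the GKN1 stretch holds 0. A CG reads as CG on both strands, so 1 strand was counted. Over 15165 protein-coding genes with a RefSeq window from 250 bases before to 50 bases after the start, 63.8% were expressed. The share was 17.8% of 2410 genes with 0 to 4 CG in the window, 31.4% of 1509 with 5 to 9, 64.0% of 2566 with 10 to 19, 80.4% of 4003 with 20 to 29 and 83.7% of 4677 with 30 or more. The VIM window holds 10 CG, in the class with 64.0% expressed, near the 63.8% of all genes with a window. VIM is therefore not an example of a promoter rich in CG. The GKN1 window holds 1, in the class with 17.8% expressed. Windows were at hand for 80.1% of protein-coding genes. DNA methylation was not measured, and the counts of CG are a description of sequence.

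HOX genes, which record position along the body axis, were expressed in 29 of 39 cases, and the posterior groups were the highest. HOXD13 was at 32.9 and 32.9 CPM per kb, HOXC10 at 28.97 and 27.4 CPM per kb, HOXA11 at 17.7 and 18.3 CPM per kb and HOXA13 at 15.4 and 16.7 CPM per kb. Of the 16 genes of paralogue groups 9 to 13, 14 were expressed, and they summed to 154 and 159 CPM per kb. The 11 genes of groups 5 to 8 had 9 expressed members and summed to 40.3 and 35.9 CPM per kb. The 12 genes of groups 1 to 4 had 6 expressed members and summed to 17.8 and 17.6 CPM per kb. All 4 clusters had at least 2 expressed posterior genes, and the anterior end of the HOXB cluster was the emptiest, with HOXB1 and HOXB2 without a count. HOX clusters hold antisense and overlapping transcripts, which these counts cannot separate.

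**Figure D3:**
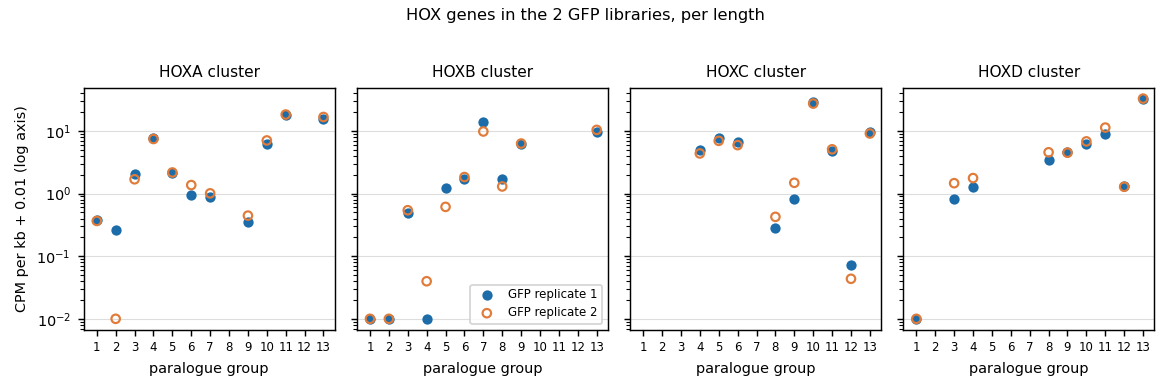
Levels of 39 HOX genes in the 2 GFP libraries by cluster and paralogue group (1 anterior, 13 posterior), as CPM per kb + 0.01 on a log axis. HOXD13 is the highest at 32.9 CPM per kb in each library, and the genes without a count, such as HOXB1, HOXB2 and HOXD1, sit at the bottom.

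Genes that mark other cell types were near or at the floor in most cases. Of 12 blood markers, 9 were at the floor and the list summed to 4.50 and 4.37 CPM. CD3E, a T cell receptor subunit, had no count in either library. HBA1, an alpha globin gene nearly identical to HBA2, was the highest of the wider blood list at 20.4 and 13.96 CPM per kb, while the beta globin gene HBB had no count in either library. Of 8 endothelial markers, 7 were at the floor and the list summed to 1.33 and 1.79 CPM. The neuronal markers summed to 226 and 225 CPM, almost all of it TUBB3, a beta tubulin that dividing tumour cells also make, at 213 and 216 CPM. In the wider neuronal list 6 of 20 genes were expressed, with STMN1, a tubulin regulator of dividing cells, at 363 and 319 CPM, ENO2 at 39.5 and 44.01 CPM, SYT1 at 14.6 and 17.4 CPM, NEFL at 9.52 and 6.72 CPM and RBFOX3 at 1.02 and 1.34 CPM. MAP2, STMN2 and NEFM of the same list had no count in either library. ALB, TTR and SERPINA1 of hepatocytes, MYOD1 of muscle and SOX10 of melanocytes likewise had none. The 4 expressed genes of that list of 16 were TNNT1, the slow skeletal troponin T, at 49.7 and 44.6 CPM, and 3 genes of pigment cells: MITF, their master regulator, at 21.6 and 25.4 CPM, DCT, a melanin synthesis enzyme, at 14.8 and 16.2 CPM and PMEL, a melanosome protein, at 2.35 and 2.02 CPM.

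Cancer-testis genes, which are normally silent outside the germ line, had 9 expressed members of 27. CTAG2 was the highest at 310.5 and 302 CPM per kb, followed by MAGEA4 at 95.1 and 86.7 CPM per kb. MAGEA3 and MAGEA6 were at 60.5 and 54.6 CPM per kb and 56.99 and 54.9 CPM per kb, with overlapping ranges, and their sequences are nearly identical, so the split between them is uncertain. MAGEA1 was at 43.9 and 43.6 CPM per kb and PRAME, a repressor of retinoic acid signalling, at 31.5 and 29.7 CPM per kb. CTAG1B, MAGEC1, MAGEC2, SSX1, SSX2 and GAGE1 had no count in either library, and CTAG1B, SSX2 and GAGE1 have near-identical copies that can leave reads unassigned. XAGE1A was not analysed here.

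Matrix genes were expressed in 142 of 242 cases, near the share of protein-coding genes. COL3A1 was the highest collagen chain at 444 and 503 CPM per kb, and COL1A1, the alpha 1 chain of type I collagen, was at 208 and 226 CPM per kb. COL1A2, the partner chain of the type I trimer, was far lower at 17.9 and 18.7 CPM per kb, below COL1A1 in both libraries. COL5A1 and COL5A2, which nucleate fibrils, were at 32.2 and 40.6 CPM per kb and 34.7 and 41.4 CPM per kb, and COL11A1, a fibril chain of cartilage, was at 43.9 and 50.2 CPM per kb. In all, 23 of 44 collagen genes were expressed and 15 were at the floor.

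In several collagen types some chains were expressed and others were under the threshold. Of the main chains of type VI collagen, a beaded filament, COL6A1 was at 77.1 and 86.5 CPM per kb and COL6A2 at 44.9 and 46.6 CPM per kb, while COL6A3 had 1 and 5 counts. Type IX collagen of cartilage showed COL9A3 at 84.2 and 90.3 CPM per kb and COL9A2 at 4.89 and 4.85 CPM per kb, and COL9A1 had no count in either library. Type IV collagen is the network of basement membranes, and its main chains were at the floor: COL4A1 had no count in either library and COL4A2 had 2 and 1 counts. COL4A5, a chain of specialised basement membranes, was instead at 35.6 and 38.9 CPM, while COL4A6, its head-to-head neighbour, had 3 and 0 counts.

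The COL4A1 and COL4A2 genes start back to back, 126 bases apart, and COL4A5 and COL4A6 start back to back 379 bases apart. The first stretch is shown because both of its genes were at the floor, and the second because its genes were on opposite sides of the threshold. The stretch between COL4A1 and COL4A2 is chr13:110307158-110307283, on the plus strand toward COL4A2, and the 250 bases before COL4A5 are chrX:108439588-108439837 on the plus strand. Both are RefSeq sequences of GRCh38.p14 read 5′ to 3′, and capitals again mark CG.
COL4A1 and COL4A2: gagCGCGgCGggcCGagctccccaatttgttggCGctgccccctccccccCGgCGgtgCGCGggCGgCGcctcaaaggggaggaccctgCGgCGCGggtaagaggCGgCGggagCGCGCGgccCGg
COL4A5: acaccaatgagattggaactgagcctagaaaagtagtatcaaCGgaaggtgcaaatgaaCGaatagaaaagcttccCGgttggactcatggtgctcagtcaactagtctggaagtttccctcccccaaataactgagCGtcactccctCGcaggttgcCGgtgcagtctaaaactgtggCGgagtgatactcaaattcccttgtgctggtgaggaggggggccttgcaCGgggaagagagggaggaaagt
The first stretch holds 20 CG in 126 bases, and the 300-base window of COL4A2 holds 45, the class in which 83.7% of genes were expressed. The COL4A5 stretch holds 8 CG in 250 bases, and its window lies in the class with 31.4% expressed. Nothing about a factor or about methylation follows from the letters.

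**Figure D4:**
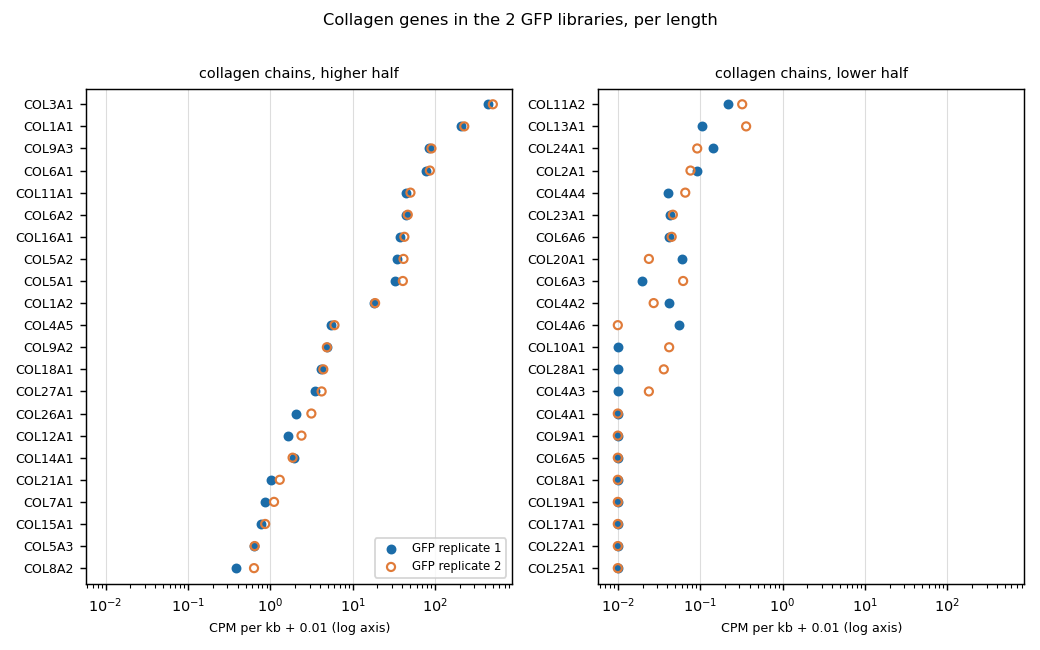
Levels of the 44 collagen genes in the 2 GFP libraries, ordered by mean, as CPM per kb + 0.01 on a log axis. COL3A1 is at the top at 444 and 503 CPM per kb, and COL4A1, COL9A1 and COL17A1 are among the genes without a count.

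Enzymes that fold, cut and crosslink collagen were expressed in 16 of 19 cases. PCOLCE, which speeds the cutting of procollagen, was at 506 and 481 CPM per kb, and SERPINH1, the collagen chaperone, at 223 and 232 CPM per kb. The lysyl hydroxylase PLOD3 was at 114 and 119 CPM per kb and the lysyl oxidase relative LOXL1 at 87.7 and 97.6 CPM per kb. LOXL4, P4HA3 and TGM2, a transglutaminase, were at the floor.

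Laminins, the other network of basement membranes, were partly complete. LAMB1 and LAMC1, the common beta and gamma chains, were at 56.99 and 66.9 CPM per kb and 33.9 and 37.9 CPM per kb, and the alpha chain LAMA5 was at 23.1 and 30.3 CPM per kb. The chains of the epithelial laminin of hemidesmosomes were split, with LAMB3 at 0 and 1 counts and LAMA3 at 30.5 and 36.4 CPM. AGRN, the heparan sulphate proteoglycan agrin, was the highest of the list at 72.9 and 88.2 CPM per kb.

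Of the proteoglycan and hyaluronan genes 20 of 27 were expressed, and of the matrix glycoproteins 23 of 36, the latter near the share of protein-coding genes. BGN (biglycan), LUM (lumican) and DCN (decorin), small proteoglycans that bind collagen fibrils, were at 253 and 248.2 CPM per kb, 83.00 and 76.6 CPM per kb and 36.4 and 34.3 CPM per kb. SPARC, a collagen-binding glycoprotein, was at 272 and 271 CPM, POSTN, which encodes periostin of activated stroma, at 219.7 and 225 CPM, and EMILIN1, an elastic fibre protein, at 499.9 and 535 CPM. IGFBP7, a secreted binding protein, was the highest glycoprotein at 151 and 159 CPM per kb, with FBLN1, a fibulin, at 134 and 130.3 CPM per kb and EMILIN1 at 127 and 136 CPM per kb, the last 2 with overlapping ranges. SPP1 (osteopontin), TGFBI and EFEMP1, often made by stromal cells, were at the floor, as was ACAN, the cartilage proteoglycan aggrecan.

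Of the matrix proteases, 7 of 24 matrix metalloproteinases and 16 of 26 ADAM and ADAMTS genes were expressed, the latter near the share of protein-coding genes. ADAM15, a membrane-bound protease, led the second list at 93.6 and 89.8 CPM per kb, and ADAM9 was at 28.1 and 29.3 CPM per kb. MMP14, a membrane-bound collagenase, was at 255 and 272.6 CPM, MMP15 at 90.9 and 98.7 CPM and MMP2, a gelatinase that MMP14 activates, at 31.4 and 33.9 CPM. MMP1, MMP3, MMP7 and MMP10, secreted enzymes, had no count in either library, and MMP9 had 1 count in each library. The inhibitor TIMP2 was at 67.3 and 66.7 CPM per kb and TIMP1 at 39.2 and 33.1 CPM per kb. CTSD, a lysosomal protease, was the highest of its list at 125 and 116 CPM per kb. SERPINB5 and SLPI, inhibitors of epithelial cells, had no count in either library.

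Integrins, the receptors for matrix, were expressed in 16 of 27 cases, near the share of protein-coding genes. ITGB1, the common beta chain, was at 61.9 and 68.2 CPM per kb. Its fibronectin-binding partners ITGA5 and ITGA4 were at 22.2 and 26.5 CPM per kb and 20.8 and 22.9 CPM per kb, with overlapping ranges, and ITGAV with ITGB5, which bind vitronectin, were at 12.8 and 14.7 CPM per kb and 15.03 and 16.1 CPM per kb. ITGA2, a collagen-binding chain, had 1 count in each library, and ITGB6, an epithelial chain that activates TGF-beta, had no count in either library.

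Metabolic genes were expressed in 244 of 319 cases, with a median over the theme of 12.4 CPM per kb against 2.22 CPM per kb for protein-coding genes. SLC2A1, the widespread glucose transporter, was the highest of its family at 23.9 and 26.3 CPM per kb, and SLC2A2, the transporter of liver and pancreas, had no count in either library. In glycolysis 21 of 27 genes were expressed, and the 6 at the floor were tissue-restricted forms such as PKLR of the liver and red cell and HK3 of blood cells. ALDOA, the muscle-type aldolase, was at 764 and 729.6 CPM per kb and PKM, a pyruvate kinase, at 692 and 655 CPM per kb, with GPI at 304 and 300.1 CPM per kb. LDHB and LDHA, the 2 main lactate dehydrogenase chains, were at 1045 and 919.99 CPM per kb and 606 and 589 CPM per kb, LDHB being higher in both libraries. SLC16A1, a lactate carrier, was at 194 and 200.1 CPM, while PDK4, a kinase that shuts off pyruvate entry into mitochondria, had no count in either library.

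Genes of glucose production were divided between expressed and floor. PCK2, the mitochondrial enzyme that makes phosphoenolpyruvate, was at 137 and 127 CPM, but PCK1, its cytosolic form, and G6PC, which releases free glucose, had no count in either library, and FBP1 had 1 and 0 counts. Glycogen genes were present, with the synthase GYS1 at 41.7 and 46.8 CPM per kb and the phosphorylase PYGL at 43.2 and 40.5 CPM per kb. The pentose phosphate pathway had 8 of 10 genes expressed, led by PGD at 206 and 194 CPM per kb and TALDO1 at 191 and 168 CPM per kb. The citric acid cycle list had 23 of 24, led by MDH2, mitochondrial malate dehydrogenase, at 379.6 and 339 CPM per kb, and ME3, a mitochondrial malic enzyme, had no count in either library.

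All 28 genes of sterol synthesis and uptake were expressed, the highest being SQLE, the squalene epoxidase, at 377 and 380.2 CPM per kb, ahead of FDPS, an enzyme of the isoprenoid steps, and the regulator SREBF1, the latter at 158 and 168 CPM per kb. SCD was at 472 and 534 CPM per kb and FASN, the fatty acid synthase, at 130.2 and 167 CPM per kb. Genes of lipid uptake and storage were different: PLIN1 and PLIN2, coat proteins of lipid droplets, had at most 1 count in either library, while PLIN3 was at 53.9 and 51.1 CPM per kb. OXCT1, which uses ketone bodies, was at 191 and 182 CPM.

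Of the serine, glycine and folate genes 18 of 22 were expressed, and of the glutamine, glutamate and asparagine genes 16 of 19. PSAT1 and PHGDH, enzymes of serine synthesis, were at 336 and 317 CPM per kb and 234 and 223 CPM per kb, and SHMT2, which feeds serine into mitochondrial folate, was at 202 and 199.9 CPM per kb. SLC7A5 and SLC3A2, the chains of a leucine transporter, were at 172 and 199 CPM per kb and 180.3 and 174 CPM per kb, and their order switched between the libraries. ASNS, asparagine synthetase, was at 263 and 231 CPM. In the urea cycle ASS1, which makes argininosuccinate, was at 531 and 509 CPM, but OTC and ARG1 of the liver had no count in either library. CKB, the brain-type creatine kinase, was the highest of its list at 758 and 687 CPM per kb, and GATM, the first enzyme of creatine synthesis, had no count in either library. CBS, which starts the conversion of homocysteine to cysteine, had 2 and 1 counts.

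NAD and purine salvage had 12 of 20 genes expressed, near the share of protein-coding genes. QPRT, an enzyme of NAD synthesis from tryptophan, was at 334 and 326 CPM, and APRT, which salvages adenine, at 185 and 166 CPM. NNMT, a nicotinamide methyltransferase of many mesenchymal cells, had no count in either library, as had IDO1 and KYNU of tryptophan breakdown. In detoxification 26 of 42 genes were expressed, also near the share of protein-coding genes. GSTP1, a glutathione transferase, was at 450.2 and 405 CPM per kb and NQO1, a quinone reductase, at 127 and 109.7 CPM per kb. GSTM1 had 0 and 1 counts and GSTT1 had no count in either library, and both genes are absent from many human genomes. AKR1B10, an aldo-keto reductase, had no count in either library.

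Among receptor tyrosine kinases 37 of 58 were expressed, near the share of protein-coding genes. PTK7, a pseudokinase of the Wnt pathway, was the highest at 60.4 and 69.4 CPM per kb. FGFR4 at 35.5 and 38.3 CPM per kb, EPHB4 at 32.9 and 36.98 CPM per kb and FGFR3 at 30.1 and 34.3 CPM per kb followed, receptors for fibroblast growth factors and ephrins, and neighbours in this order had overlapping ranges. ERBB2 was at 24.9 and 25.4 CPM per kb and ROR2, a Wnt receptor, at 21.2 and 23.4 CPM per kb. MET, the receptor for hepatocyte growth factor, was at 3.36 and 4.08 CPM per kb, AXL at 6.35 and 6.83 CPM per kb and FGFR2 at 4.47 and 6.10 CPM per kb. EGFR had 3 and 7 counts and FGFR1 had 1 and 2 counts, and KIT, FLT1, KDR and MST1R had no count in either library.

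**Figure D5:**
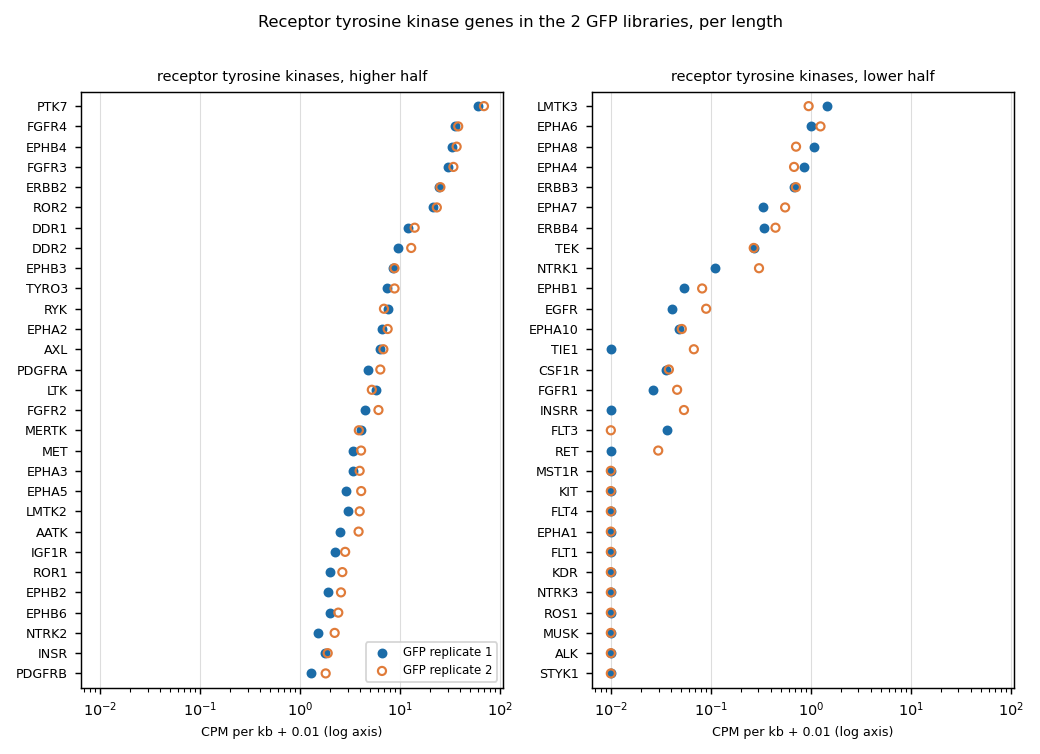
Levels of the 58 receptor tyrosine kinase genes in the 2 GFP libraries, ordered by mean, as CPM per kb + 0.01 on a log axis. PTK7 leads at 60.4 and 69.4 CPM per kb, while EGFR and FGFR1 lie under 0.1 CPM per kb in both libraries and KIT, KDR, MST1R and ALK have no count.

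Ligands of these receptors were expressed in 22 of 46 cases, and VEGFB, a vascular growth factor, led at 92.1 and 70.4 CPM per kb. PDGFA and PDGFC, platelet-derived growth factors, were at 11.1 and 11.4 CPM per kb and 9.71 and 10.1 CPM per kb. GAS6, the ligand of AXL, was at 13.96 and 13.7 CPM per kb. Of the EGF family, HBEGF was at 4.81 and 3.58 CPM and NRG4 at 1.43 and 1.68 CPM, while AREG, EREG, BTC and NRG3 had no count in either library, EPGN had 0 and 1 counts and TGFA had 2 and 3 counts.

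In the TGF-beta list 25 of 34 genes were expressed and 8 were at the floor, TGFBR2 among them. The ligand TGFB1 was at 141 and 142 CPM, but TGFBR2, the receptor chain that binds it and starts the signal, had 1 and 2 counts. ENG and FSTL1, a secreted glycoprotein of the follistatin family, were at 36.7 and 38.4 CPM per kb and 38.5 and 41.7 CPM per kb. BMP7, a bone morphogenetic protein, was at 87.01 and 90.3 CPM. INHBA, NODAL and LEFTY1 had no count in either library. Downstream, ID3 and ID1, targets of BMP signals, led the Hippo and SMAD list at 143 and 132 CPM per kb and 89.00 and 76.3 CPM per kb.

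Of the Wnt genes, 34 of 56 receptors, ligands and antagonists were expressed, near the share of protein-coding genes, and 16 of 18 cytoplasmic regulators and targets. WLS, which carries Wnt proteins to the surface, was at 53.04 and 52.1 CPM per kb, the ligand WNT11 at 48.7 and 49.96 CPM per kb, and the receptor FZD2 at 24.4 and 27.5 CPM per kb. NOTUM, an enzyme that inactivates Wnt proteins, was at 43.03 and 45.3 CPM per kb, and SFRP4, a secreted antagonist, at 26.9 and 26.5 CPM per kb. The feedback regulators NKD2 and AXIN2 were at 72.7 and 80.4 CPM per kb and 36.7 and 40.5 CPM per kb, and the nuclear partner LEF1 was at 20.5 and 22.97 CPM per kb. WNT1, WNT2 and FZD10 had no count in either library, as had ASCL2, a Wnt target of intestinal stem cells.

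Notch and Hedgehog genes were expressed in 19 of 25 cases. JAG2, a Notch ligand, was the highest at 65.2 and 71.6 CPM per kb, and NOTCH3 was the highest receptor at 27.7 and 37.4 CPM per kb, followed by NOTCH2 at 11.2 and 15.3 CPM per kb and NOTCH1 at 8.34 and 11.6 CPM per kb, the last 2 with overlapping ranges. SMO, the signalling protein of the Hedgehog pathway, was at 51.7 and 57.6 CPM, but its upstream ligands SHH and IHH had no count in either library and DHH had 1 count in each library.

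G protein-coupled receptors were the sparsest receptor class, with 22 of 62 expressed and 32 at the floor. LPHN2, an adhesion receptor, was the highest of those with a known length at 19.9 and 24.5 CPM per kb, and CD97, another adhesion receptor, whose length was not matched, was at 105 and 108 CPM. S1PR5 and ADRB1, receptors for sphingosine 1-phosphate and adrenaline, were at 12.8 and 12.3 CPM per kb and 10.98 and 10.9 CPM per kb. Cytokine and death receptors were expressed in 26 of 40 cases, near the share of protein-coding genes. IL11RA was the highest at 58.02 and 54.7 CPM per kb, then TNFRSF1A, a TNF receptor, at 31.5 and 30.5 CPM per kb. IL1R1, the interleukin 1 receptor, had 3 and 2 counts, and TNFRSF1B had no count in either library.

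Nuclear receptors were expressed in 26 of 48 cases. RARG, a retinoic acid receptor, led at 115 and 118 CPM per kb, with NR2F6 at 82.1 and 83.5 CPM per kb and ESRRA, an orphan receptor of energy metabolism, at 55.8 and 62.9 CPM per kb. The steroid hormone receptors ESR1, PGR, NR3C1 and NR3C2 were at the floor. NR3C1, which encodes the glucocorticoid receptor found in most cell types, had no count in either library.

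Genes of antigen presentation on class I molecules were expressed and those of class II were not. B2M, the shared light chain, was at 358 and 323 CPM, and the heavy chain gene HLA-B at 105 and 102 CPM. CIITA, the switch for class II genes, HLA-DRA and HLA-DPA1 had no count in either library, and CD74 had 1 count in each library. CD276, an inhibitory surface ligand, was at 116 and 114 CPM. Of 29 innate sensors and their adaptors, 11 were expressed, and 15 were at the floor. MAVS and TMEM173 (STING), adaptors for RNA and DNA sensing, were at 122 and 138 CPM and 26.00 and 21.2 CPM. TLR2, TLR4, TLR7 and TLR9, receptors for microbial products, had no count in either library, and CASP1, the inflammasome protease, had 3 and 0 counts.

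Of the 411 regulators of all lists, 81.5% were expressed, the largest share of the 5 themes. In the p53 list 31 of 32 genes were expressed in cells labelled as lacking p53. BAX, a death effector, was at 61.4 and 52.7 CPM per kb, PLK2 at 65.3 and 69.7 CPM per kb and CCNG1 at 38.7 and 37.00 CPM per kb. MDM2, the ubiquitin ligase of p53, was at 23.9 and 22.3 CPM, and CDKN1A, the cell cycle inhibitor p21, at 10.3 and 12.8 CPM. TP63, a relative of p53, was at 1.54 and 2.69 CPM.

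All 26 genes of the RB pathway and cyclin list were expressed. CDKN2A, which encodes the inhibitors p16 and ARF and is often lost in tumours, was the highest at 304 and 276 CPM per kb. These counts do not separate its 2 products. CDK4, the kinase that p16 inhibits, was at 109 and 104 CPM per kb, and CCND1, its cyclin partner, at 64.05 and 71.3 CPM per kb. MYC was at 453 and 481 CPM, and its partner MAX was at 58.8 and 57.6 CPM.

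In the RAS, MAPK and PI3K list 35 of 41 genes were expressed. PIK3R2, a regulatory subunit of PI3K, was at 177 and 193 CPM per kb and AKT1, the kinase downstream, at 56.9 and 61.1 CPM per kb. Of the negative feedback genes that ERK signals induce, DUSP6, SPRY4 and DUSP5 had at most 2 counts in either library, while SPRY1 was at 2.90 and 2.45 CPM per kb, SPRY2 at 2.12 and 2.40 CPM per kb and SPRED2 at 6.15 and 6.40 CPM per kb. RHOA, a small GTPase of the cytoskeleton, was the highest at 213 and 196 CPM per kb. YAP1, the Hippo effector, was at 26.3 and 28.96 CPM per kb and its DNA-binding partner TEAD4 at 35.3 and 32.6 CPM per kb, and the YAP targets CYR61 and CTGF at 5.95 and 5.77 CPM per kb and 1.01 and 0.910 CPM per kb. ANKRD1, another YAP target, and VGLL3 had no count in either library.

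Genes of cell death were expressed in 27 of 37 cases. BIRC5 (survivin), a mitotic regulator, led at 99.3 and 91.3 CPM per kb, and MCL1, a survival protein, was at 51.3 and 54.2 CPM per kb, with BCL2L1 at 18.3 and 20.04 CPM per kb. RIPK3 and MLKL, the kinase and the effector of necroptosis, had no count and 3 and 1 counts.

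DNA repair genes were expressed in 34 of 38 cases. XRCC6 and XRCC5, the 2 Ku subunits of end joining, were the highest at 292 and 263 CPM per kb and 177 and 176 CPM per kb, and PARP1 was at 145 and 157 CPM per kb. The mismatch repair gene MSH6 was at 259 and 258 CPM, while MLH3, of the same pathway, had 2 and 3 counts. MGMT, which removes alkyl damage, was at 25.2 and 24.8 CPM. SLFN11, which blocks stalled replication forks, had no count in either library. TERC, the RNA of telomerase, also had no count, and it lacks the poly(A) tail that mRNA kits select.

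Chromatin regulators were expressed in 37 of 38 cases. SMARCA4, the motor of the SWI/SNF complex, was at 125 and 144 CPM per kb and DNMT1, the maintenance DNA methyltransferase, at 106 and 127 CPM per kb, with overlapping ranges. Among oncofetal regulators HMGA1, an architectural chromatin protein, was at 434 and 426 CPM per kb, PEG10, an imprinted gene, at 38.5 and 46.9 CPM per kb and IGF2BP3, an RNA-binding protein, at 15.9 and 19.7 CPM per kb. The pluripotency genes NANOG, LIN28A, SALL4 and DPPA4 had at most 1 count in either library.

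Homeobox factors outside the HOX clusters were expressed in 37 of 50 cases. PITX1, a factor of the hind limb, and MSX2, a factor of limb and skull mesenchyme, were at 80.8 and 85.00 CPM per kb and 80.1 and 80.4 CPM per kb. LHX9, a factor of the limb and gonad, was at 54.2 and 62.8 CPM per kb. SIX3 and PAX8, factors of the forebrain and of the thyroid and kidney, had no count in either library. Of 19 SOX factors 8 were expressed, led by SOX12 at 69.4 and 77.9 CPM per kb and SOX4 at 17.7 and 19.9 CPM per kb. Among inducible factors ATF4, the effector of the integrated stress response, was at 295 and 252 CPM per kb and JUND, an AP-1 subunit, at 167 and 148 CPM per kb. FOSL1, an AP-1 subunit of many invasive tumours, had 3 and 1 counts, and STAT5A had 3 counts in each library.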

How the data were processed

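Total RNA of HGC27 cells was made into mRNA libraries and sequenced. The authors' deposited table holds whole-number read counts per gene, and STAR 2.5, bcl2fastq and hg19 are named in the submitters' processing notes. The labels do not name the counting tool or the annotation. The 92 spike-in rows, all at 0, were left out, which left 25343 genes. The 2 GFP libraries were scaled to CPM by their total count. Lengths came from the longest GENCODE 29 transcript of each symbol, matched for 22677 genes by symbol and 935 by another RefSeq symbol, with 1731 unmatched. The median transcript and the union of exons were alternatives, as were TMM scaling (edgeR 4.0.16), thinning to the same total, other thresholds, and each library alone. The description has 1 group and no test between groups. Self-tests on simulated counts were run. With 2 libraries, precision is given as both values, and 3 counts limit what 0 allows, for counting error only. The members and lists were chosen with earlier results of these data known. Named from each list are its defining genes, up to 6 further expressed members highest per length and up to 6 floor members in list order, plus the 15 highest genes of the table by CPM and by CPM per kb, with antisense, readthrough and placeholder names passed over. Genes outside that rule, added after their values were seen to complete a family, pair or complex, are PSCA, KRT18, KRT19, PGA5, HBB, PRAME, COL1A2, COL5A1, COL5A2, COL6A3, COL9A2, COL9A1, COL4A5, COL17A1, LAMA3, ALK, CD97, CDH3, CYR61, CTGF, SPRY1, SPRY2, SPRED2, HBEGF, NRG4, CNN1, ACTG2, MYH11, ACTA2, TAGLN, MYL9 and the gene neighbours in the closing section. A few listed genes are not reported here.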

Additional observations from a re-analysis of the deposited data

How the results depend on the processing

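Most list counts stayed within 1.5 times of the reported count: 61 of 63 lists at a CPM of at least 0.5 in both libraries, 61 of 63 at a CPM of at least 2, and 60 of 63 at 1 CPM per kb. The exceptions were small counts near the threshold. At 0.5 CPM the gastric mucosa list had 1 expressed gene in place of 0, and the foregut factors had 10 in place of 6. At 2 CPM the keratins had 1 in place of 3 and the endothelial markers 0 in place of 3. At 1 CPM per kb the keratins had 1, the endothelial markers 0, and the integrins 9 in place of 16. With GFP replicate 2 left out, the gastric mucosa list had 1 expressed gene, PSCA, and with GFP replicate 1 left out it had 0. TMM scaling moved 16 of 696 named genes by more than the spread between the libraries. The choice of transcript length mattered more. The median transcript moved 417 values per length and left 278 the same. The union of exons moved 335 and left 360 the same. The highest member of a list was the same in 37 and 54 of 63 lists. By the median transcript COL1A1 led the collagens, ENO1 glycolysis, ROR2 the receptor tyrosine kinases and TCF3 the transcription factors of the mesenchymal state. No paired analysis was possible because only 1 group is described.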

Other observations

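Several genes next to COL4A1 were also at the floor, in the order RefSeq gives them, as were 32.4% of all protein-coding genes. The genes IRS2, MYO16 and TNFSF13B had no count in either library and COL4A2 had 2 and 1 counts. The nearest flanks were expressed, with ABHD13 at 95 and 83 counts, LIG4 at 58 and 62, RAB20 at 20 and 16 and CARKD at 258 and 221. Farther out, FAM155A had no count in either library and TEX29 had 1 and 0 counts. IRS2 encodes an adaptor of the insulin receptor. This run was noticed after the values were seen, and DNA copy number and chromatin at the region were not tested.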
